A study of Mus musculus with 47 samples.

Results

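Phlda3 and 9 other well-known targets of the transcription factor p53 were followed in single fast-twitch muscle fibres that contained or lacked fast skeletal myosin binding protein C. The 10 genes (Phlda3, Cdkn1a, Mdm2, Ccng1, Eda2r, Trp53inp1, Sesn1, Zmat3, Bax and Aen) were taken by name from the 24421 genes of the count tables, and all 10 were measured. FVB/N mice aged 2 to 3 months gave the fibres, which were dissected from the extensor digitorum longus (EDL) muscle of the hindlimb. The data comprised 27 wild-type (WT) fibres and 20 fibres of C2KO mice, in which exons 2 to 22 of Mybpc2 had been replaced by a Neo cassette flanked by loxP sites. The labels name 3 WT and 2 C2KO mice but do not say which mouse gave which fibre, and all fibres were released by collagenase digestion.

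p53 is a transcription factor that is held at a low level by the ubiquitin ligase Mdm2 and is stabilised by DNA damage and other stress. Its targets include inhibitors of the cell cycle, its own negative regulators, antioxidant genes and genes that promote cell death. Phlda3 encodes a small protein with a pleckstrin homology domain that competes with the kinase Akt for membrane lipids and thereby restrains Akt signalling, and it is a direct p53 target in several cell types. The comparison asks whether Phlda3 moved together with other p53 targets in fibres without Mybpc2, or alone.

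Single fibres were not treated as replicates and were summed into 5 pools, although the WT pools share mice, so the spread between them may be smaller than that between mice. WT pools 1, 2 and 3 were the fibres of 3 sequencing runs, with 10, 10 and 7 fibres. C2KO pools 740 and 2445 were the fibres whose names begin with these numbers, 10 each. WT fibres held 7769593 to 14606631 gene counts and C2KO fibres 7648762 to 10517887. The targeted gene followed the labels in all fibres, with at least 6563 CPM (counts per 1000000 gene counts) of Mybpc2 in each WT fibre and at most 47.6 CPM in any C2KO fibre. Marker genes of type IIb fibres summed to 269850 to 314583 CPM per WT fibre and to 249232 to 328552 CPM per C2KO fibre.

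The promoter of Phlda3 is shown because this gene carries the difference between the genotypes. Its 250 bases before the annotated start (GRCm38.p6, plus strand, RefSeq) held no match to the p53 half-site motif of 10 bases, so no letter is in capitals:
Phlda3, chr1:135765835-135766084: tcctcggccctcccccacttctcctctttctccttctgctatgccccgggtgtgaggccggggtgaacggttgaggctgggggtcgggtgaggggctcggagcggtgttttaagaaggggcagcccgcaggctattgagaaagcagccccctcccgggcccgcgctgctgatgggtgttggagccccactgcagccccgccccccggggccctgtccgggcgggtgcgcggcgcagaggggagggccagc

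Half-site matches were found in windows of 300 bases, 250 before and 50 after a start, of 6 of the 8 members with a RefSeq promoter entry. The motif reads the same on both strands, so 1 search covers both. Of 32851 promoter windows of all genes, 8.36% held a match, against 7 of the 11 windows of these 8 members. The windows of Aen overlap and share 1 site. A match is a description of letters and not evidence of binding. The matches are shown because they belong to members whose difference between the genotypes did not pass the test. The half-site is in capitals with 10 bases on either side, read in the direction of the gene:
Cdkn1a, chr17:29090896-29090925, plus strand: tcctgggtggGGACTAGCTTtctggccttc
Cdkn1a, chr17:29090918-29090947, plus strand: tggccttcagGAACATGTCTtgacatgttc
Mdm2, chr10:117710925-117710954, minus strand: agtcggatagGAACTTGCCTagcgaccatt
Ccng1, chr11:40755452-40755481, minus strand: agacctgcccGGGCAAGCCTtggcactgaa
Sesn1, chr10:41887256-41887285, plus strand: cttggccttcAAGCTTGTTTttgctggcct
Bax, chr7:45467080-45467109, minus strand: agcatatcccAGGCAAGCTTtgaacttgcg
Aen, chr7:78895927-78895956, plus strand: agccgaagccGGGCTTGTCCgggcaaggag

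Cdkn1a was the only member with a pair of half-sites separated by at most 13 bases, an arrangement found in 0.0731% of all windows. Eda2r, which did not pass the test either, held no match. No match says only that these letters are absent from the window.

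Phlda3 was higher in every C2KO fibre than in every WT fibre, and none of the other 9 genes showed such a separation. Phlda3 (mm10 chromosome 1, 135766085 to 135769134, 1467 exon bases) had pool values of 13.1, 9.86 and 6.21 CPM in WT pools 1, 2 and 3 and of 94.8 and 115 CPM in C2KO pools 740 and 2445, scaled by the trimmed mean of M-values (TMM). Both C2KO pools lay far above all WT pools. The WT mean was 9.73 CPM ± 3.46 (SD over 3 pools), and the C2KO mean was 105 CPM ± 13.97 (SD over 2 pools). The log2 fold change was 3.42 (SE 0.30, 95% interval 2.70 to 4.14, edgeR quasi-likelihood test, Benjamini-Hochberg adjusted p = 0.0396), which met both limits set for a call, 0.05 for the adjusted p and 1.5 for the fold. Of 12863 genes tested, 6 were called (0.0466%), 3 of them higher in C2KO (0.0233%).

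That call was the least secure part of the Phlda3 result. Its adjusted p was 0.0971, 0.321 and 0.125 without WT pool 1, 2 or 3, and 0.0530 without fibre 740-12, whose log2 fold change of 3.43 was close to that with it. The log2 fold change lay between 3.19 and 4.08 in all 17 alternatives. Of the 11 alternatives that kept at least 2 pools per genotype as replicates and could change the call, 7 kept it. The other 6 treated single fibres as replicates (3), left 1 C2KO pool (2) or dropped the fold threshold (1), and they bear little on the call.

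Single fibres gave a wider view of the same gap. Phlda3 had its lowest, median and highest values at 3.93, 13.7 and 23.002 CPM in WT pool 1, at 3.11, 8.60 and 22.1 CPM in WT pool 2, and at 3.56, 6.05 and 9.596 CPM in WT pool 3. The corresponding values for C2KO were 80.9, 91.4 and 129.6 CPM in pool 740 and 70.5, 106 and 150 CPM in pool 2445. The lowest C2KO fibre was 3.06 times the highest WT fibre. Each of the 47 fibres had at least 30 Phlda3 counts, so the gap was not set by fibres without a count. Of the 12863 tested genes, 4 (0.0311%) were higher in every C2KO fibre than in every WT fibre, and 7 (0.0544%) did not overlap in either direction. Phlda3 varied more among WT fibres, with a coefficient of variation of 58.2%, than among C2KO fibres, with 22.5%, and that difference was not tested.

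**Figure D1:**
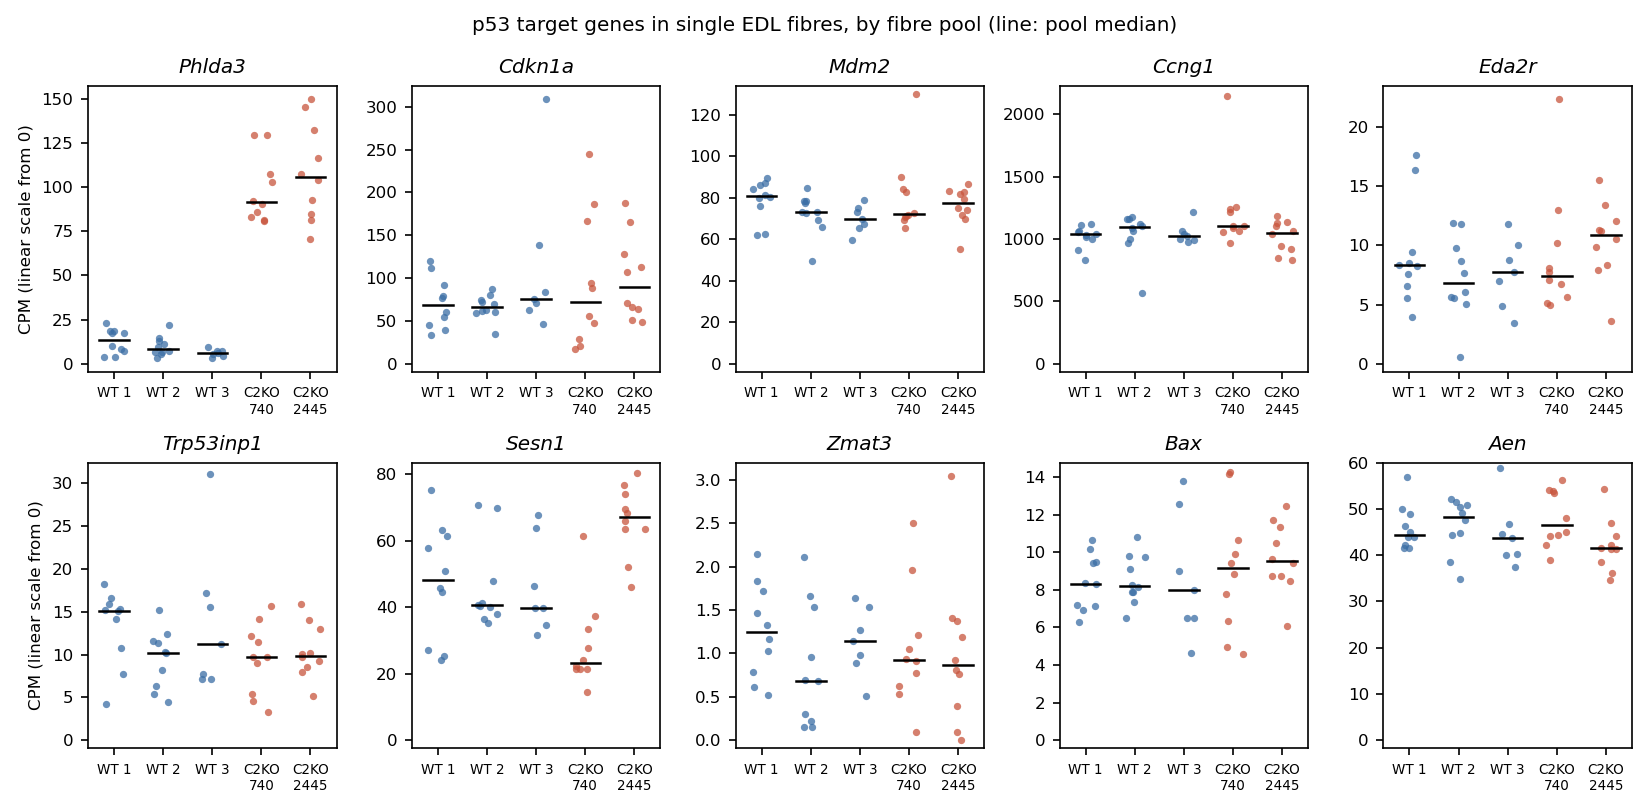
CPM (linear axis from 0) of the 10 genes in each fibre, by pool, with WT fibres in blue, C2KO fibres in red and the pool median as a line. Phlda3 separates the genotypes, from at most 23.002 CPM in WT to at least 70.5 CPM in C2KO, while the fibres of the other 9 genes overlap.

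Levels could be compared between genes only per length. Per kilobase of exon, the median WT fibre held 297.6 CPM of Ccng1, 34.9 of Cdkn1a, 24.2 of Mdm2, 17.4 of Aen, 12.4 of Sesn1, 9.48 of Bax, 5.10 of Phlda3, 2.09 of Trp53inp1, 1.33 of Eda2r and 0.133 of Zmat3. Phlda3 thus ranked below Bax in WT fibres, and only Ccng1 and Cdkn1a, of the genes next to each other in this order, had ranges that did not overlap between fibres. In C2KO fibres its median of 66.7 CPM per kilobase stood second to Ccng1, at 313, and above Cdkn1a, at 39.4. The other 9 genes had the same order as in WT. CPM are shares of a fibre's counts, so more Phlda3 transcript and less of the other RNA in a fibre cannot be told apart.

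Cell-cycle inhibitors and regulators among the p53 targets did not pass the test. Cdkn1a encodes the cyclin-dependent kinase inhibitor p21, the best-known transcriptional target of p53. Its pool values were 72.3, 66.02 and 112.6 CPM in WT pools 1 to 3 and 88.2 and 106 CPM in C2KO pools 740 and 2445. Both C2KO pools thus lay inside the WT range, but above WT pools 1 and 2. The log2 fold change was 0.22 (SE 0.24, 95% interval -0.36 to 0.80, edgeR adjusted p = 0.788). WT pool 3, the top of that range, holds fibre 62 at 310 CPM, against 139 CPM in its next fibre. Without WT pool 3 the log2 fold change was 0.49 (SE 0.13, edgeR adjusted p = 0.581). Among fibres Cdkn1a ran from 33.8 to 310 CPM in WT, with a median of 70.6, and from 17.2 to 245 CPM in C2KO, with a median of 79.9.

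The highest Cdkn1a value belonged to WT fibre 62, at 310 CPM, and that fibre held only 3.56 CPM of Phlda3, the second lowest value of all fibres. The highest C2KO value belonged to fibre 740-1, at 245 CPM, with 103 CPM of Phlda3. Fibre 740-13 had the lowest Cdkn1a value, 17.2 CPM, with Phlda3 at 129.3 CPM.

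Ccng1, which encodes cyclin G1 and recruits a phosphatase to Mdm2, was the most abundant member. It stood at 1021, 1037 and 1033 CPM in WT pools 1 to 3 and at 1168 and 1079 CPM in C2KO pools 740 and 2445. Both C2KO pools were higher than all WT pools, but by little: the log2 fold change was 0.12 (SE 0.081, 95% interval -0.071 to 0.32, edgeR adjusted p = 0.628). Fibre 740-12 held 2146 CPM of Ccng1, and the next highest fibre of its pool 1260 CPM.

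The negative regulator of p53 barely differed. Mdm2 encodes the ubiquitin ligase that marks p53 for degradation and is itself induced by p53. Pool values were 79.6, 72.03 and 69.2 CPM in WT pools 1 to 3 and 77.3 and 80.4 CPM in C2KO pools 740 and 2445, with overlapping genotypes and a log2 fold change of 0.099 (SE 0.097, 95% interval -0.14 to 0.33, edgeR adjusted p = 0.761). The upper end of that interval lay below the lower end of the Phlda3 interval.

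Targets linked to cell death did not pass the test either. Bax encodes a protein that permeabilises the outer mitochondrial membrane. It had pool values of 8.43, 8.48 and 8.63 CPM in WT pools 1 to 3 and 8.89 and 10.3 CPM in C2KO pools 740 and 2445. Both C2KO pools were higher, and the log2 fold change was 0.17 (SE 0.12, 95% interval -0.12 to 0.46, edgeR adjusted p = 0.662). Bax lies 0.937 Mb from the end of the targeted gene Mybpc2 on chromosome 7.

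Aen encodes an exonuclease that degrades DNA during apoptosis. It was at 46.2, 46.1 and 43.9 CPM in WT pools 1 to 3 and at 46.04 and 44.5 CPM in C2KO pools 740 and 2445. The pools overlapped almost fully, and the log2 fold change was -0.0044 (SE 0.087, 95% interval -0.22 to 0.21, edgeR adjusted p = 0.991).

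Eda2r encodes a receptor of the tumour necrosis factor family that binds ectodysplasin A2. Its pool values were 9.36, 7.34 and 7.62 CPM in WT pools 1 to 3 and 8.66 and 10.97 CPM in C2KO pools 740 and 2445, with a log2 fold change of 0.27 (SE 0.17, 95% interval -0.14 to 0.69, edgeR adjusted p = 0.613). It had the largest positive change of the 9 genes, and the genotypes overlapped.

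Trp53inp1, which encodes a stress-induced nuclear protein that acts in cell death and autophagy, was at 13.3, 9.52 and 13.5 CPM in WT pools 1 to 3 and at 9.29 and 10.97 CPM in C2KO pools 740 and 2445. Its log2 fold change of -0.26 (SE 0.19, 95% interval -0.71 to 0.19, edgeR adjusted p = 0.667) was the lowest of the 9 genes. The pools overlapped through WT pool 2.

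Zmat3 encodes a zinc-finger protein that binds RNA. It was the least abundant member, with pool values between 0.852 and 1.27 CPM in WT and of 1.02 and 1.05 CPM in C2KO, and a log2 fold change of -0.069 (SE 0.31, 95% interval -0.82 to 0.68, edgeR adjusted p = 0.962). One fibre, 2445-1, had 0 Zmat3 counts, which allows up to 0.295 CPM. Exons of Zmat3 share 162 bases with 4930429B21Rik on the opposite strand, so its value is uncertain if the libraries did not keep strand.

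Sesn1, which encodes the antioxidant protein sestrin 1 and restrains the kinase mTORC1, differed most between the C2KO pools. It was at 48.1, 45.8 and 45.8 CPM in WT pools 1 to 3, whereas C2KO pool 740 stood at 27.8 CPM and pool 2445 at 69.4 CPM. One C2KO pool was below and the other above all WT pools. The log2 fold change was 0.063 (SE 0.34, 95% interval -0.77 to 0.89, edgeR adjusted p = 0.969). Without C2KO pool 2445 it was -0.74 and Sesn1 was called (adjusted p = 0.0399 in edgeR), but that fit takes its spread from the WT pools alone and called 2.62% of 13669 genes.

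Sesn1 moved with the sex-linked genes of the fibres, a split made after its values were seen and given with no test. In 15 WT fibres with more counts of Y-linked genes than of Xist, its lowest, median and highest values were 24.2, 38.1 and 47.8 CPM. In the 12 other WT fibres they were 40.1, 62.2 and 75.3 CPM. All 10 fibres of C2KO pool 740 had more Y-linked counts, with Sesn1 at 14.5, 23.2 and 61.4 CPM, and all 10 of C2KO pool 2445 had more Xist counts, with Sesn1 at 46.03, 67.03 and 80.2 CPM. The part of sex-linked counts in the difference between the C2KO pools was not tested. Phlda3 was high in both kinds of C2KO fibre, with medians of 91.4 and 106 CPM, and low in both kinds of WT fibre, with medians of 7.14 and 9.71 CPM.

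As a group, the 9 genes other than Phlda3 had a median log2 fold change of 0.099, against -0.00038 over all 12863 genes tested. Of these 9, 6 were above 0 and 3 below it, and 0 had an unadjusted p under 0.05, compared with 10.3% of all genes in either direction and 6.2% higher in C2KO. Their adjusted p-values ran from 0.613 to 0.991, and their 95% intervals together spanned -0.82 to 0.89, below the 2.70 at the lower end of the Phlda3 interval. Both C2KO pools lay above all WT pools for Ccng1 and Bax in addition to Phlda3, while 13.1% of all genes tested were separated upwards and 27.6% in either direction. With 3 against 2 pools, a p that misses the threshold does not show that the 9 genes were equal between the genotypes.

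**Figure D2:**
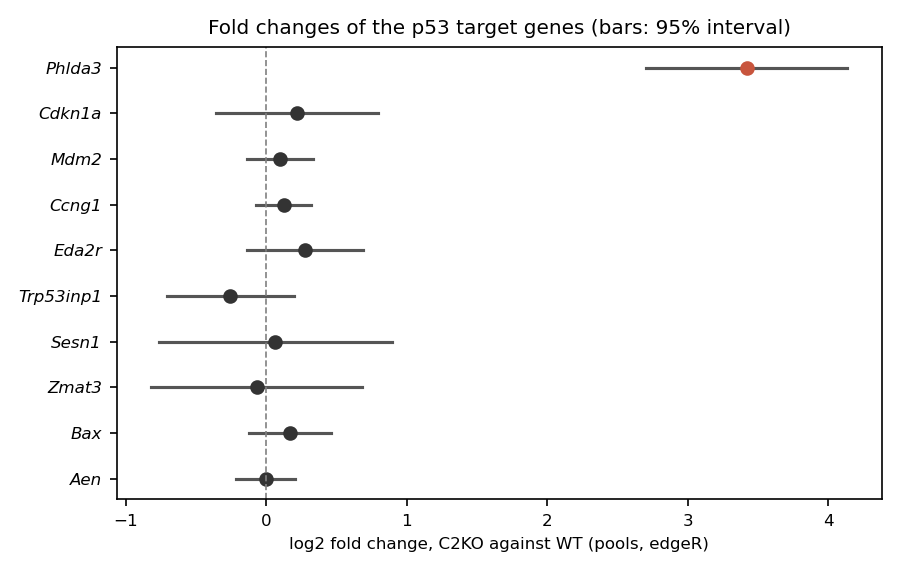
Log2 fold changes (C2KO against WT, edgeR on 5 pools) of the 10 genes with their 95% intervals, the called gene in red. Phlda3 lies at 3.42, and the intervals of the other 9 genes all include 0 and end at or below 0.89.

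Whether Phlda3 tracked the other targets from fibre to fibre was described within each genotype, with no p, since fibres of a genotype share mice, runs and depth. Spearman rank correlations of log2(CPM + 1) with Phlda3 ran from -0.25 for Trp53inp1 to 0.21 for Mdm2 over 27 WT fibres. Over 20 C2KO fibres they ran from -0.47 for Aen to 0.30 for Sesn1. For Cdkn1a, the correlation was -0.13 in WT and -0.26 in C2KO, so fibres with more p21 transcript did not hold more Phlda3. Ccng1, at -0.43 in C2KO fibres, was the only other gene with a value over 0.3 in size. Among 6052 genes with a mean of at least 10 CPM, the middle 90% of values with Phlda3 ran from -0.33 to 0.29 in WT fibres and from -0.43 to 0.43 in C2KO fibres, so Aen and Ccng1 in C2KO fibres lay just below that range. Correlations this weak are no finding.

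Subtracting each pool's mean left these values weak. The correlations then ran from -0.34 to 0.12 in WT fibres and from -0.37 to 0.29 in C2KO fibres, and the sign changed in 4 of 18 values. Among the other 9 genes most pairs were also weakly related. Without centring their 36 pairs had a median correlation of 0.0043 in WT fibres and of -0.026 in C2KO fibres, and 0 pairs in WT and 1 in C2KO reached 0.5, Cdkn1a with Mdm2 at 0.63. With pool means subtracted 3 pairs did so in C2KO fibres, Cdkn1a with Mdm2 at 0.68, Mdm2 with Ccng1 at 0.56 and Sesn1 with Bax at 0.51, and again 0 in WT fibres.

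**Figure D3:**
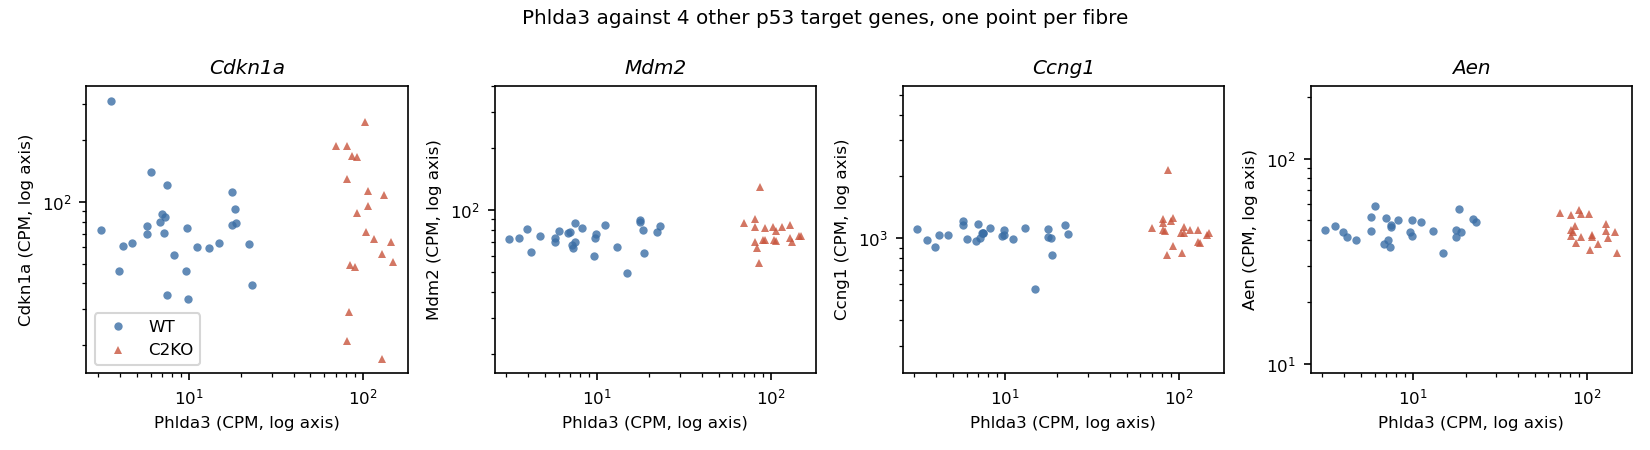
Phlda3 against Cdkn1a, Mdm2, Ccng1 and Aen in each fibre (CPM, log axes spanning the same ratio on each vertical axis), with 27 WT fibres as blue circles and 20 C2KO fibres as red triangles. C2KO fibres are shifted to the right along the Phlda3 axis, while the vertical ranges of the genotypes overlap.

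A single fibre gave a different combination. Fibre 740-12 had the highest value of Ccng1 (2146 CPM), Mdm2 (130 CPM) and Eda2r (22.4 CPM) of all 47 fibres, with Cdkn1a at 167 CPM. Its Phlda3 value, 86.1 CPM, was below the C2KO median of 97.9 CPM. Macrophage and leukocyte markers summed to 18.4 CPM in it, against at most 4.40 CPM in any WT fibre, and their part in these values was not tested. C2KO fibre 740-2 held 23.1 CPM of these markers, with Ccng1 at 1218, Mdm2 at 71.8 and Eda2r at 6.75 CPM. Bax, at 6.33 CPM, and Aen, at 39.03 CPM, were not raised in fibre 740-12.

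Among genes with a mean of at least 10 CPM, those with the course most like Phlda3 were not on the p53 lists used here. Listed genes below that mean, such as Eda2r, Bax and Zmat3, were not ranked and could not appear. Over 47 fibres, after each pool's mean was subtracted, the highest Pearson correlations with Phlda3 among the 6052 genes belonged to Dapk2, a death-associated protein kinase (0.52), Map3k7cl (0.52), Rhbdl1, a rhomboid protein (0.51), Setd8, a lysine methyltransferase that acts on histone H4 and on p53 (0.50), and Dnlz, a mitochondrial chaperone partner (0.49). The lowest belonged to Syne2, which encodes nesprin 2 of the nuclear envelope (-0.57), Deptor, an mTOR inhibitor (-0.50), and Tdp2, a DNA repair enzyme (-0.48). In WT and C2KO fibres by themselves the values were 0.61 and 0.28 for Dapk2 and 0.58 and 0.35 for Map3k7cl. They were 0.49 and 0.69 for Rhbdl1, 0.52 and 0.55 for Setd8, and 0.44 and 0.75 for Dnlz. All 8 genes were picked as the extremes of 6052 values over fibres that share mice, and their correlations were not tested. These 8 genes differed little between the genotypes, with log2 fold changes from -0.38 for Tdp2 to 0.37 for Setd8, and none was called.

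The wider p53 pathway was followed in 93 further genes sorted by role, of which 82 had enough counts to be tested. None was called, 50 were above 0 and 32 below it, and the median log2 fold change was 0.076. An unadjusted p under 0.05 was reached by 12 of the 82 genes, 8 of them higher in C2KO, against 10.3% and 6.2% of all genes.

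Upstream of the targets, 19 genes of p53, its homologues and its regulators were tested. Their median log2 fold change was -0.025, with 9 above 0 and 10 below it. Trp53 itself averaged 8.68 CPM ± 1.11 (SD over 3 pools) in WT and 9.49 CPM ± 1.43 (SD over 2 pools) in C2KO. Its log2 fold change was 0.13 (± 0.16 SE, adjusted p = 0.825 in edgeR), and its median was 8.37 CPM per WT fibre and 7.42 CPM per C2KO fibre. Mdm4, the partner of Mdm2 in holding p53 down, had pool means between 12.2 and 18.03 CPM and a log2 fold change of -0.29 (± 0.14 SE, adjusted p = 0.528 in edgeR). Usp10, a deubiquitinase that acts on p53, had the highest CPM of this role and a log2 fold change of -0.093 (± 0.11 SE, adjusted p = 0.804 in edgeR). The p53 homologue Trp73 had the lowest p, but only 48 counts in all fibres together (log2 fold change -1.78 ± 0.71 SE, adjusted p = 0.474 in edgeR).

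Among 29 other p53 targets tested, 22 were above 0 and 7 below it, with a median of 0.22, and 5 had an unadjusted p under 0.05, all higher in C2KO, where 6.2% of all genes were. The lowest of the adjusted p-values was 0.413. The 5 were Cd82, Plk2, Gadd45a, Polk and Trp53inp2, with Gadd45a, Polk and Trp53inp2 named after their values were seen. Both C2KO pools lay above all WT pools for Gadd45a, Polk and Trp53inp2. Their log2 fold changes were 0.48 (± 0.20 SE), 0.39 (± 0.14 SE) and 0.22 (± 0.087 SE), with adjusted p = 0.479, 0.458 and 0.469 in edgeR. Pools did not overlap for 11 of the 29 in either direction, against 27.6% of all genes. Cd82, which encodes a tetraspanin of the cell membrane, was at 9.06, 7.77 and 7.41 CPM in WT pools 1 to 3 and at 30.4 and 10.9 CPM in C2KO pools 740 and 2445. The excess was mostly in pool 740, and the log2 fold change of 1.35 (± 0.39 SE, adjusted p = 0.413 in edgeR) did not pass the test. The median of Cd82 was 8.56 CPM in WT fibres with more Y-linked than Xist counts and 5.12 CPM in the other WT fibres. All fibres of pool 740 were of the first kind and all of pool 2445 of the second. The part of sex-linked counts in the Cd82 values was not tested. Plk2, a polo-like kinase, was between 0.977 and 1.51 CPM in the WT pools, at 13.7 CPM in pool 740 of C2KO and at 1.08 CPM in pool 2445. Its highest value, 56.03 CPM, was in fibre 740-5, 1 of 4 C2KO fibres whose endothelial markers exceeded those of every WT fibre. Endothelial markers summed to 97.5 CPM in fibre 740-5 and fibroblast markers to 5145 CPM, and their part in this value was not tested. The median fibre of pool 740 held 6.13 CPM of Plk2 and that of pool 2445 held 0.698 CPM, and the highest WT fibre held 3.30 CPM. Ak1, an adenylate kinase and the target of highest CPM here, had overlapping pools (log2 fold change 0.026 ± 0.10 SE, adjusted p = 0.954 in edgeR).

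**Figure D4:**
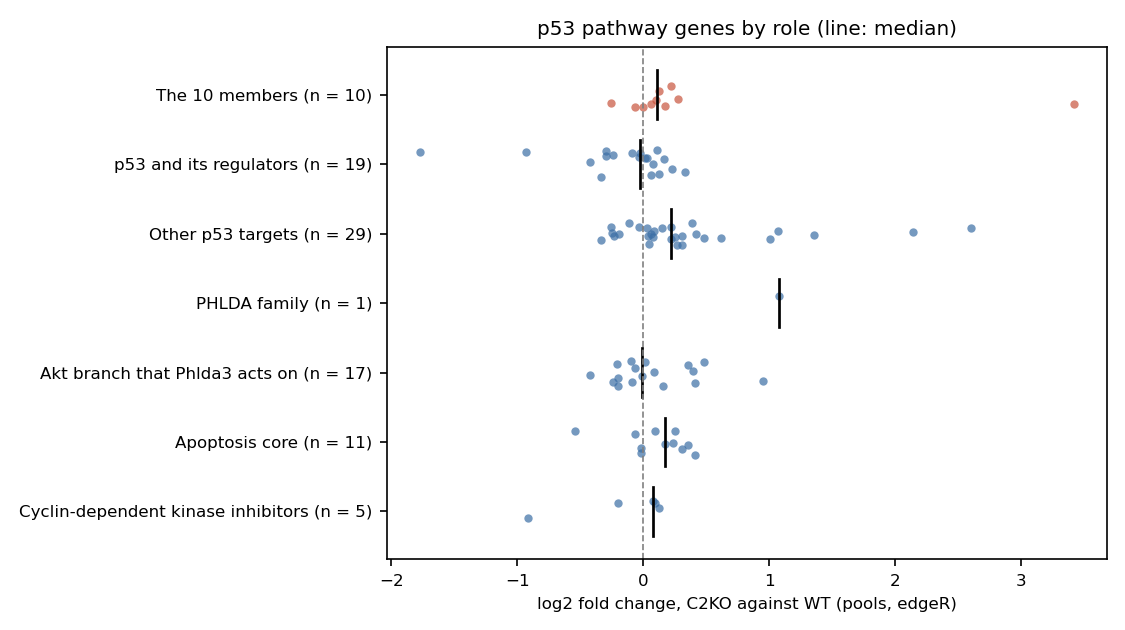
Log2 fold changes (C2KO against WT, edgeR on 5 pools) of the 10 genes, in red, and of the 82 tested pathway genes by role, in blue, 1 point per gene, with the median of each role as a line. Phlda3 lies farthest to the right at 3.42, and the medians of the roles with over 1 gene lie between -0.025 and 0.22.

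Of the relatives of Phlda3, Phlda1 was also higher in C2KO pools. Phlda1, which encodes another protein of the pleckstrin homology-like family, was at 8.76, 5.26 and 7.83 CPM in WT pools 1 to 3 and at 17.9 and 12.9 CPM in C2KO pools 740 and 2445. The pools did not overlap, but the log2 fold change of 1.08 (SE 0.25, 95% interval 0.48 to 1.68, edgeR adjusted p = 0.395) did not pass the test. Its fibres overlapped widely, from 0.992 to 19.4 CPM in WT and from 1.37 to 44.1 CPM in C2KO. Phlda2 had 4 counts in all 47 fibres and was not tested.

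None of the 17 genes listed for the Akt branch, on which Phlda3 acts, was called. The list holds Thbs1 (log2 fold change 0.40 ± 0.72 SE), which encodes a secreted protein and not a part of the branch itself. RNA levels do not show whether Akt signalling changed. Of the 17, 8 were above 0 and 9 below it, with a median of -0.0092, and 3 had an unadjusted p under 0.05, against 10.3% of all genes. They were Foxo1, Tsc2 and Gsk3b, a kinase that Akt inhibits, named after its values were seen (log2 fold change -0.42 ± 0.15 SE, adjusted p = 0.458 in edgeR). Foxo1, a transcription factor that Akt keeps out of the nucleus, was at 54.4, 37.5 and 46.5 CPM in WT pools 1 to 3 and at 63.1 and 65.7 CPM in C2KO pools 740 and 2445 (log2 fold change 0.48 ± 0.16 SE, adjusted p = 0.441 in edgeR). Tsc2, a brake on mTORC1 that Akt phosphorylates, was lower in both C2KO pools, at 81.4 and 79.9 CPM against 94.3 to 96.9 CPM (log2 fold change -0.24 ± 0.081 SE, adjusted p = 0.441 in edgeR). Akt2, the gene of highest CPM in the branch, had a log2 fold change of -0.092 (± 0.084 SE, adjusted p = 0.737 in edgeR).

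Neither the apoptosis core nor the cyclin-dependent kinase inhibitors held a called gene. Of 11 tested apoptosis genes 7 were above 0 and 4 below it. Cycs, which encodes cytochrome c, was at 183, 201 and 255 CPM in WT pools 1 to 3 and at 301 and 264 CPM in C2KO pools 740 and 2445 (log2 fold change 0.41 ± 0.15 SE, adjusted p = 0.458 in edgeR). The anti-apoptotic gene Mcl1 had a log2 fold change of 0.23 (± 0.14 SE, adjusted p = 0.610 in edgeR).

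Of 5 cyclin-dependent kinase inhibitors other than p21, 3 were above 0 and 2 below it. Cdkn1c, which encodes p57, was at 22.1, 40.7 and 32.2 CPM in WT pools 1 to 3 and at 19.5 and 14.001 CPM in C2KO pools 740 and 2445 (log2 fold change -0.92 ± 0.28 SE, adjusted p = 0.416 in edgeR). Its median was 39.7 CPM in WT fibres with more Y-linked than Xist counts and 23.1 CPM in the other WT fibres. It was 20.1 CPM in pool 740, of the first kind, and 13.3 CPM in pool 2445, of the second. The part of sex-linked counts in the Cdkn1c values was not tested. Cdkn1b, which encodes p27, had a log2 fold change of -0.20 (± 0.16 SE, adjusted p = 0.693 in edgeR), and Cdkn2d, the gene of highest CPM among the 5, one of 0.078 (± 0.14 SE, adjusted p = 0.883 in edgeR).

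Genes near Phlda3 on chromosome 1 were compared to see whether the difference extended beyond the gene. Of 20 genes within 500 kb, 12 were tested and none was called, with a median log2 fold change of 0.057 over changes in both directions. An unadjusted p under 0.05 was reached by 4 of the 12, against 10.3% of all genes: Csrp1 was higher, and Lmod1 (-1.25), Tnnt2 and Cacna1s (-0.31) were lower. Lmod1, which encodes leiomodin 1, and Cacna1s, the skeletal muscle calcium channel subunit, were named after their values were seen. Csrp1, the nearest tested neighbour upstream, starts 36.9 kb before Phlda3 and encodes a LIM-domain protein abundant in smooth muscle. It had 0.386, 0.271 and 0.349 CPM in WT pools 1 to 3 and 3.21 and 1.52 CPM in C2KO pools 740 and 2445, a log2 fold change of 2.82 (± 0.41 SE, adjusted p = 0.211 in edgeR) on only 558 counts in all fibres.

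The Csrp1 fibres overlapped, unlike those of Phlda3. WT fibres ran from 0 to 1.04 CPM and C2KO fibres from 0.406 to 10.3 CPM. Of the 16 C2KO fibres without raised endothelial markers, 11 exceeded the highest WT fibre, as did 3 of the other 4. Tnnt2, the cardiac troponin T gene and the nearest tested neighbour downstream, starts 70.2 kb after Phlda3 and was lower in C2KO, with a log2 fold change of -0.96 (± 0.26 SE, adjusted p = 0.413 in edgeR).

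**Figure D5:**
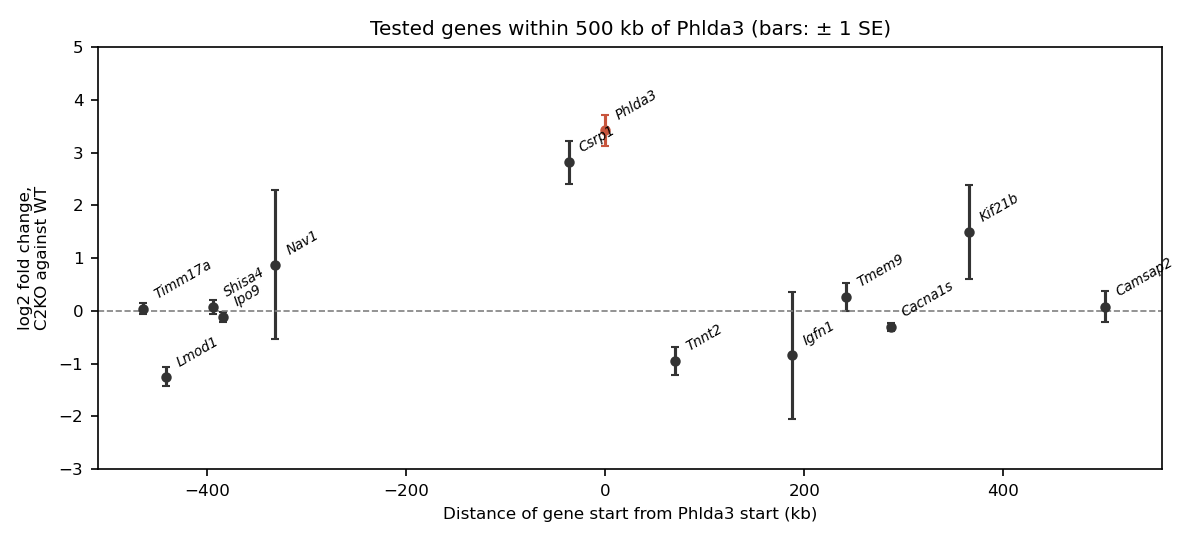
Log2 fold changes (C2KO against WT, edgeR on 5 pools, ± 1 SE) of the 13 tested genes within 500 kb of Phlda3, itself included, against the distance of their starts from the Phlda3 start in kb. Phlda3, in red, and Csrp1 stand at 3.42 and 2.82, and the other 11 genes lie between -1.25 and 1.49.

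Marker RNA of cells other than muscle fibres was found in libraries of both genotypes, with the highest sums in some C2KO libraries. The 12 endothelial markers summed to 0 to 5.08 CPM per WT fibre and to 0 to 104 CPM per C2KO fibre, and 4 C2KO fibres (2445-1, 740-2, 740-5 and 740-8) exceeded every WT fibre. The 12 fibroblast markers summed to 0.303 to 377 CPM per WT fibre and to 0.0957 to 5145 CPM per C2KO fibre. Ptprb was the only endothelial marker at 0 in all WT fibres. Phlda3 was at 83.2 to 132 CPM in those 4 fibres and at 70.5 to 150 CPM in the 16 other C2KO fibres. Without the 4 fibres its log2 fold change was 3.42 (± 0.28 SE, adjusted p = 0.0189 in edgeR). The 12 immediate-early and dissociation genes summed to 1284 to 8771 CPM per WT fibre and to 2484 to 6820 CPM per C2KO fibre, so these ranges overlapped.

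Sequencing run was nearly confounded with genotype. Run 0092, that of WT pool 3, was the only one with both, and held 7 WT fibres and 1 C2KO fibre, 740-1. Within it the 7 WT fibres held 3.56 to 9.596 CPM of Phlda3, and the C2KO fibre held 103 CPM. Mdm2 was also above the WT range there, at 82.8 against 59.8 to 78.8 CPM. Trp53inp1, at 3.27 against 7.19 to 31.02 CPM, and Sesn1, at 14.5 against 31.5 to 67.9 CPM, were below it, and the other 6 members were inside. With run as a covariate over single fibres, the log2 fold change of Phlda3 was 4.08 (± 0.48 SE, adjusted p = 2.58e-07 in edgeR). That fit treats fibres as replicates and rests its genotype difference on fibre 740-1.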

How the data were processed

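The authors deposited raw counts for 24421 genes in each of 47 single-fibre libraries. They are whole-number counts of read pairs over mm10 exons, made with featureCounts 1.5.2 and strand option 2 per the file headers. FastQC 0.11.2, CASAVA 1.4 and HISAT2 2.0.5 are listed in the submitters' processing notes. The sources used here do not say if the libraries kept strand. The gene length column of the deposited count tables gave the exon lengths.

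Counts were summed into 3 WT pools by run and 2 C2KO pools by fibre-name prefix. The quasi-likelihood test of edgeR 4.0.16 (R 4.3.3) was run with TMM scaling, filterByExpr, Benjamini-Hochberg adjustment over all 12863 genes tested and calls at an adjusted p under 0.05 with a fold over 1.5. The WT pools hold fibres of both sex-linked kinds and so share mice, and p-values measure only the spread between pools, which may be technical. Fibre values are CPM of all gene counts. DESeq2 1.42.0 and limma 3.58.1 were alternatives. The limit of a count of 0 is 3 counts and covers counting error only.

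The members, the pathway, marker and neighbour lists and the tests were chosen with earlier results of these data known. The text names the 10 members and Mybpc2, the 5 genes of highest and the 3 of lowest Pearson correlation with Phlda3, the nearest tested gene on each side, Phlda1 and Phlda2, and in each role of the pathway its called genes or else the 2 genes of lowest p and the most abundant. Trp53 was added after its values were seen. Zmat3 and Trp53inp1 had no promoter entry in the RefSeq table used. One gene that this rule names is not reported here.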

Additional observations from a re-analysis of the deposited data

Results flagged for a closer look

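The highest and the lowest fibre of each pool were compared with the nearest other fibre for each of the 10 genes, and 10 of 50 sets held a fibre set apart from the others by a gap that is large for the range of its pool. For normally distributed values chance flags about 1 in 20 such sets. Fibre 740-12 of C2KO pool 740 accounted for 3 of them, with Mdm2 at 130 CPM against 90.2 CPM in the next fibre, Ccng1 at 2146 against 1260 CPM, and Eda2r at 22.4 against 12.96 CPM. In the same pool, fibre 740-13 stood apart for Sesn1 at 61.4 CPM against 37.2 CPM. In C2KO pool 2445, fibre 2445-11 stood apart for Zmat3 at 3.05 CPM against 1.41 CPM. In WT pool 3, fibre 62 stood apart for Cdkn1a at 310 CPM against 139 CPM, fibre 87 for Ccng1 at 1214 CPM against 1065 CPM, and fibre 50 for Trp53inp1 at 31.02 CPM against 17.2 CPM. In WT pool 2, fibre 57_17715 was low in Cdkn1a at 35.04 CPM against 59.5 CPM, and fibre 59_17717 was low in Ccng1 at 565 CPM against 969.6 CPM. Phlda3, Bax and Aen had no such fibre in any pool. These values were not explained further.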

How the results depend on the processing

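Phlda3 was higher in C2KO in all 17 alternatives and called in 7 of the 11 with at least 2 pools per genotype as replicates. The other 6, with single fibres as replicates, 1 C2KO pool or no fold threshold, bear little on the call. Leaving out 1 pool gave log2 fold changes from 3.19 to 3.69, 0 to 2 called members, 1 to 358 called genes and medians of the 9 other genes from 0.057 to 0.13. The call was lost without WT pool 1, 2 or 3, and also without fibre 740-12 (3.43, 0 members and 3 genes called), an alternative chosen after seeing the data. Of the 9 other genes, only Sesn1 was ever called, at -0.74 without C2KO pool 2445. All genes called numbered 6 in the main setting, 215 with DESeq2, 11 with no filter on low counts, 485 with each fibre as 1 sample in edgeR, 474 in limma-voom and 41 with run as a covariate. The median of the 9 genes was -0.075 with that covariate and 0.036 with C2KO fibres pooled by run.

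Signs of genes near 0 changed, without a call except for Sesn1 without C2KO pool 2445. Leaving out 1 pool gave -0.028 to 0.026 for Aen, -0.22 to 0.059 for Zmat3 and -0.74 to 0.58 for Sesn1. Aen was at 0.0026 with DESeq2, 0.0038 with RLE factors, 0.33 with run as a covariate, 0.15 with C2KO pooled by run, 0.027 without the 4 fibres of high endothelial markers and 0.015 without fibre 740-12. Sesn1 was at -0.084 with limma-voom on pools, -0.075 with limma-voom on fibres, -1.61 with run as a covariate and -0.52 with C2KO pooled by run. Zmat3 was at 0.048 without the 4 fibres, and with run as a covariate Eda2r was at -0.57 and Bax at -0.75. Cdkn1a and Trp53inp1 kept their signs but moved in size, without a call. Cdkn1a was at 0.81 (SE 0.39) with C2KO pooled by run and at 1.14 (SE 0.75) with run as a covariate, against 0.22 in the main setting. Trp53inp1 was at -0.62 (SE 0.35) and -2.03 (SE 0.74) in these 2 settings, against -0.26. The cause of these changes was not tested. No paired analysis was possible because the groups share no replicate numbers that mark a common mouse, batch or day. Run is nearly confounded with genotype and the C2KO pools are 2, so a change of small size in the 9 genes was not detectable here.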
